A study of Mus musculus with 84 samples.

Results

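Reactive astrocytes were followed here through 10 genes that are induced in astrocytes after middle cerebral artery occlusion (MCAO), an experimental stroke. The genes are Tgm1, Ptx3, S100a10, Sphk1, Cd109, Ptgs2, Emp1, Tm4sf1, B3gnt5 and Cd14. They were taken by name from the list of MCAO-reactive transcripts that the study used. All 10 were among the 48526 genes of the table for experimental autoimmune encephalomyelitis (EAE) and among the 25773 genes of the table for regional subtypes and cultures. The 2 remaining genes of that list, Clcf1 and Slc10a6, were listed for EAE only and are given beside the 10.

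EAE is an inflammatory demyelinating disease of mice that is used as a model of multiple sclerosis. Female C57BL/6 mice, labelled C57BL/6J, were immunized at 10 weeks of age with the myelin peptide MOG35-55 in complete Freund's adjuvant and received pertussis toxin. Their astrocytes were collected at score 1 (E1, limp tail), at score 4 (E4, complete hind leg paralysis) and in the chronic stage (Ech), and controls (C) were unimmunized. All astrocytes were live cells sorted as ACSA-2 positive, CD11B negative and CD45 negative, and were then split on surface GLAST, the product of Slc1a3. The 66 libraries comprised hindbrain GLASTneg astrocytes (C n = 5, E1 n = 6, E4 n = 6, Ech n = 6), hindbrain GLASTpos astrocytes (5, 6, 6 and 4) and spinal cord GLASTneg astrocytes (5, 5, 6 and 6). The second experiment held 15 libraries of untreated adult FVB/N mice, 3 for each of forebrain GLASTneg, forebrain GLASTpos, hindbrain GLASTneg, hindbrain GLASTpos and spinal cord GLASTneg astrocytes. It also held 3 libraries of C57BL/6J neonatal astrocytes that had been cultured in serum with L929 cell-conditioned medium until the microglia were shaken off. A library of isolated cells pools 1 mouse or 2 mice, and no source says which libraries share a litter or a day, so the p-values measure the spread between libraries. Numbers inside the titles recur between populations of 1 stage, so libraries of different populations may come from the same mice, while the tests took all libraries as independent.

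Astrocytes react to injury and inflammation by changing their transcriptome, and sets of transcripts have been named after the insult that induces them. The MCAO set is often set against a set induced by bacterial lipopolysaccharide (LPS) and a pan-reactive set that both insults share. The products of the 10 genes have unlike functions. Ptx3 and Cd14 belong to innate recognition, Ptgs2 and Sphk1 make lipid mediators, B3gnt5 builds glycosphingolipids, and Cd109 binds transforming growth factor-β at the cell surface. Tgm1 cross-links proteins, S100a10 scaffolds annexin A2 at the membrane, and Emp1 and Tm4sf1 are tetraspan membrane proteins.

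In GRCm38 Tgm1 lies at chr14:55700009-55713926, Ptx3 at chr3:66219910-66225805, S100a10 at chr3:93555080-93564643, Sphk1 at chr11:116530925-116536674 and Cd109 at chr9:78615546-78716253. Ptgs2 lies at chr1:150100031-150108227, Emp1 at chr6:135362545-135383173, Tm4sf1 at chr3:57285611-57301988 and B3gnt5 at chr16:19760208-19772753. All 10 genes are protein coding, and values are 3′ tags summed over the exons of a gene. Ptx3 and Cd109 overlap genes of the other strand, as do Tgm1 and Sphk1.

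Upstream sequence from RefSeq is shown for 4 members, Ptx3, Tgm1, Emp1 and Ptgs2, because each had its highest group mean in another population or stage. Of the 10 members, 7 were found in the table of promoters, and S100a10, Cd109 and Cd14 are named only. Each sequence is the 250 bases before the annotated start, 5′ to 3′ on the strand of the gene, in build GRCm38.p6. Capitals mark matches, on either strand, to the AP-1 motif TGANTCA, the STAT motif TTCNNNGAA, the C/EBP motif TTGCNNAA or the hypoxia-response core ACGTG.
Ptx3, chr3:66219637-66219886, plus strand: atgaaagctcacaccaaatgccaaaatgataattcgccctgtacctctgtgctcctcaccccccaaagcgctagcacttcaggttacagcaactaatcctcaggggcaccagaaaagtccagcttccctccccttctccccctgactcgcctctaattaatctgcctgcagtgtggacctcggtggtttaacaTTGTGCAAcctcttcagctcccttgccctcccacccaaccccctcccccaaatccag
Tgm1, chr14:55713493-55713742, minus strand: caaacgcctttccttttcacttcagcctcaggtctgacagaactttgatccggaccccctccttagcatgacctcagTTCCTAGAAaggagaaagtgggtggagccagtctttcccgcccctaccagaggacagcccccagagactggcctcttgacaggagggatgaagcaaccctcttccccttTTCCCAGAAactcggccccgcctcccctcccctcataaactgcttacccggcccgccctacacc
Emp1, chr6:135362681-135362930, plus strand: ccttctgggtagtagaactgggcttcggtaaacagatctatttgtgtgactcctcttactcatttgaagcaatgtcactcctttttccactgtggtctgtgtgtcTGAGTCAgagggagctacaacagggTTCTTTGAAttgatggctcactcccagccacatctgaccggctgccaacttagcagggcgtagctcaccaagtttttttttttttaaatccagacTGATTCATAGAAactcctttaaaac
Ptgs2, chr1:150099781-150100030, plus strand: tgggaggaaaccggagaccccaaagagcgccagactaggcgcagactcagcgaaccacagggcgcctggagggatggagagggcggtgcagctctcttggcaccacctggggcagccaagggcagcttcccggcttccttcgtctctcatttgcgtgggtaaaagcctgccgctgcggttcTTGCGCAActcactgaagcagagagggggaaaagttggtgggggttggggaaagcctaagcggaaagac
The Ptx3 and Ptgs2 windows each hold 1 C/EBP match, at 57 and 69 bases before the start. The Tgm1 window holds 2 STAT matches, and the Emp1 window holds 2 AP-1 and 2 STAT matches, of which an AP-1 and a STAT match overlap within 25 bases of the start. The Ptgs2 window includes 183 bases of annotated exon, the Emp1 window 27 and the Tgm1 window 2. Over 13 windows of the 7 members, AP-1 was matched for Sphk1 and Emp1, STAT for Tgm1, Sphk1 and Emp1, C/EBP for Ptx3 and Ptgs2, and the hypoxia core for Tgm1, Sphk1 and B3gnt5. The NF-kB motif was matched for Sphk1 and Tm4sf1. Among 32851 windows of all genes, 6.75% held the AP-1 motif, 7.02% the STAT motif, 9.56% the C/EBP motif, 16.6% the hypoxia core and 7.25% the NF-kB motif. These are shares of single windows. A member was named if any of its windows matched, and some windows of a gene overlap, so the 2 are not on 1 scale. These matches describe letters in a window and not sites of binding.

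The EAE libraries held between 1313682 and 4895220 counts, the FVB/N libraries between 416768 and 1269316, and the cultures between 2183464 and 8188074. Levels are given as CPM, the counts of a gene for every 1000000 counts of the library, after TMM scaling, and detection of a gene asked for over 3 counts. That floor lay between 0.613 and 2.28 CPM in the EAE libraries and between 2.36 and 7.2 CPM in the FVB/N libraries, and it covers counting error only. The libraries read 1 end of each transcript and carry no molecular identifiers, so low values can be a single molecule read many times, and levels of different genes are not ranked here. A gene was called at a Benjamini-Hochberg adjusted p under 0.05 and a log2 fold change past 1 in edgeR's two-sided quasi-likelihood test over 23324 genes, all 10 members included.

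Marker genes were summed to check the labels. The 10 astrocyte markers summed to between 18100 and 30900 CPM in all hindbrain libraries. In spinal cord they summed to between 13100 and 18400 CPM in controls, 4320 and 22300 at E1, 2430 and 3930 at E4, and 3500 and 5980 at Ech. Atp1b2, which encodes the ACSA-2 antigen used for the sort, lay between 5170 and 7710 CPM in spinal cord controls and between 103 and 599 CPM at E4. Over the same groups the 10 oligodendrocyte markers went from between 14400 and 41900 to between 30400 and 77700 CPM. In bulk samples fewer astrocytes and less RNA per astrocyte cannot be told apart. The spinal cord E4 library of replicate 2 stood apart, with 4860 CPM of 12 myeloid markers and 536 CPM of 5 neutrophil markers, against 125 to 299 and 4.51 to 30.3 CPM in the other 5. For 1 spinal cord E1 library, replicate 1, the title says spinal cord and another label says hindbrain, and the title was followed.

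The members were scarce in these astrocytes. Only S100a10 passed the floor in all 66 libraries. Emp1 passed it in 46, Cd109 in 35, Ptx3 in 28, Cd14 in 26, B3gnt5 in 23, Tgm1 and Sphk1 in 15 each, Ptgs2 in 11 and Tm4sf1 in 10. In the controls 6 members were at 0 in all 5 hindbrain GLASTneg libraries (Tgm1, Sphk1, Ptgs2, Tm4sf1, B3gnt5 and Cd14), 3 in all 5 spinal cord libraries (Sphk1, Ptgs2 and Cd14) and 2 in all 5 hindbrain GLASTpos libraries (Ptgs2 and Tm4sf1). A member at 0 in a group is not shown to be absent, since a count of 0 allows up to the floor.

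**Figure D1:**
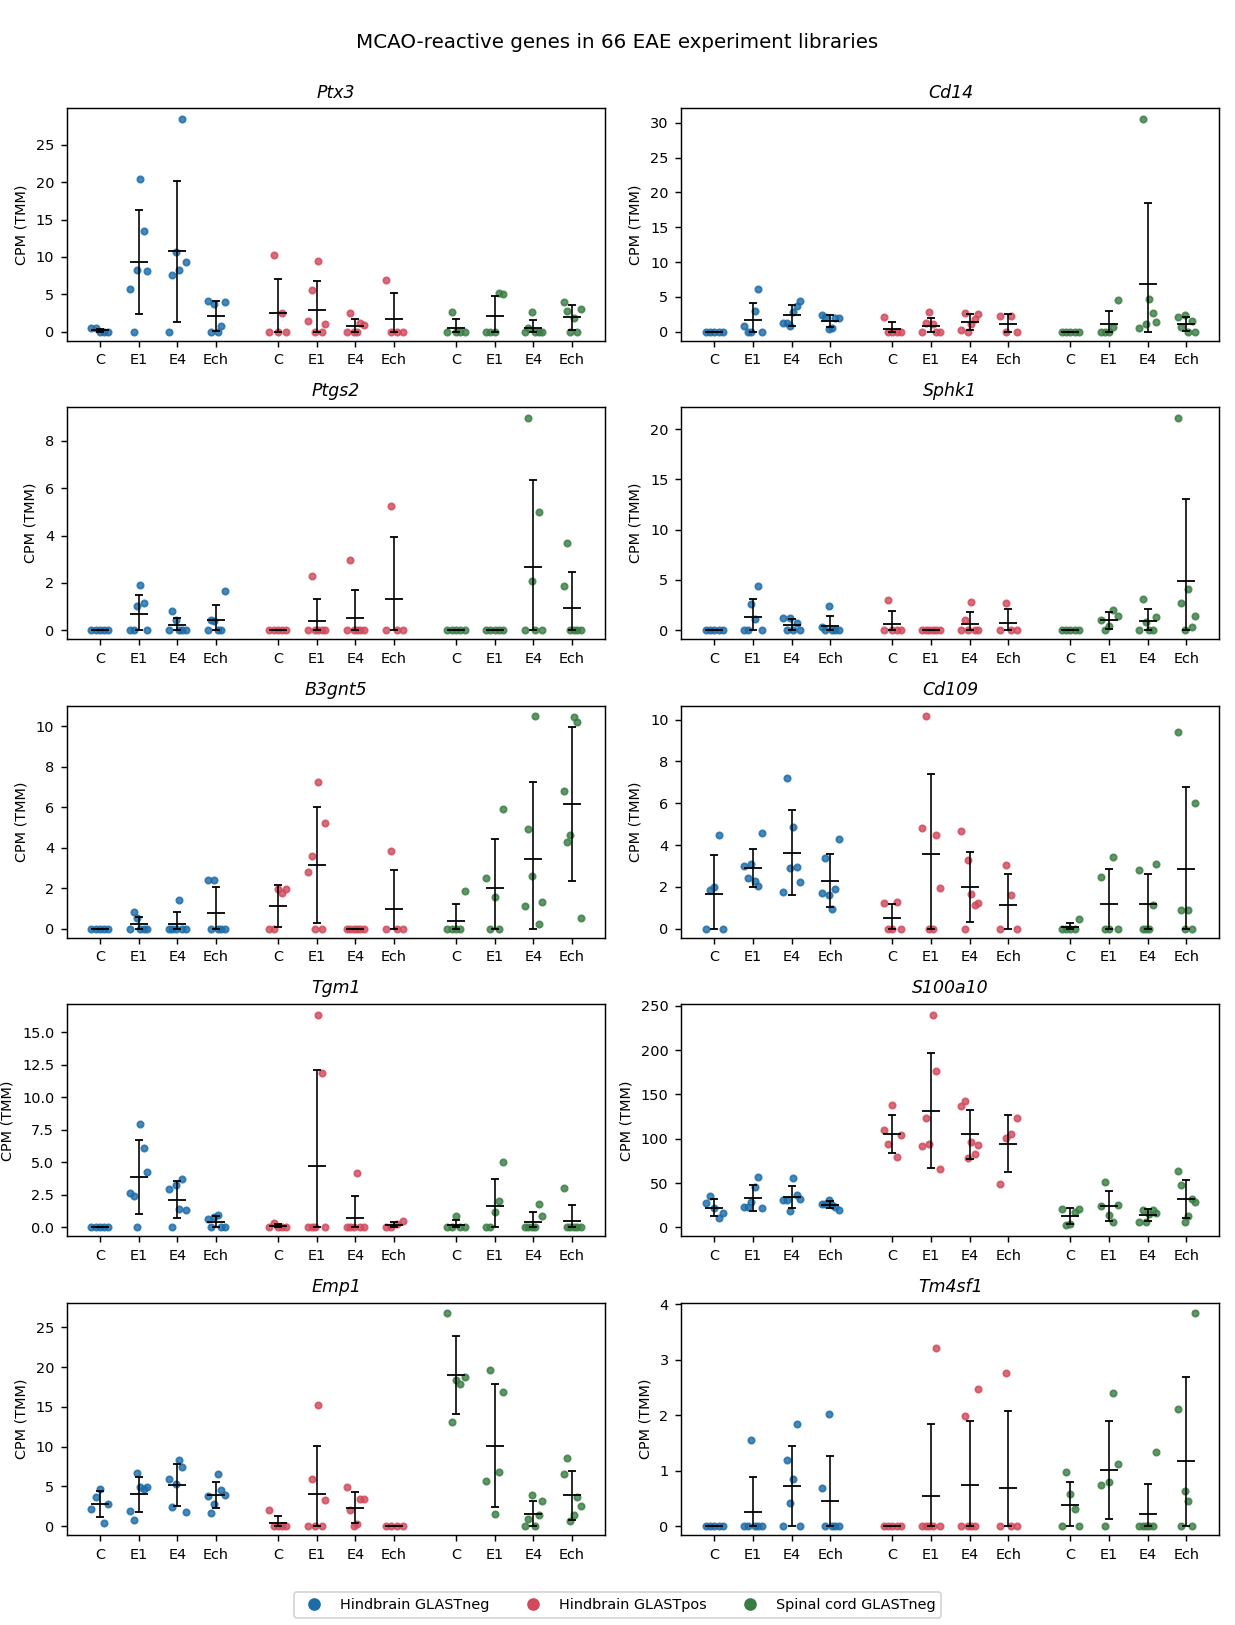
Each panel gives CPM after TMM scaling of 1 member in the 66 EAE experiment libraries, 1 point a library, by stage (C, E1, E4, Ech) and population (colour), with the mean (bar) and SD (whisker, cut at 0). S100a10 was highest in hindbrain GLASTpos libraries, Emp1 in spinal cord controls and Ptx3 in hindbrain GLASTneg libraries at E1 and E4, while most other points lie below 5 CPM.

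Pattern recognition molecules came first by role. Ptx3 encodes a long pentraxin, a secreted recognition molecule that binds C1q. In hindbrain GLASTneg controls it was at 0.425, 0.460, 0, 0 and 0 CPM. At E1 it was at 5.64, 0, 8.25, 20.4, 13.5 and 8.15 CPM, and at E4 at 0, 7.60, 10.7, 8.28, 28.5 and 9.36 CPM. Thus 5 of 6 libraries at either stage lay above every control, and 1 library at each stage held no Ptx3 count. The pooled ratio to controls was 55.1 at E1 (95% counting interval 15.0 to 459) and 61.4 at E4 (16.7 to 511), where 2 of 5 controls held 1 count each. Counting intervals in this text pool the counts of a group and leave out the spread between libraries. At Ech the 6 libraries lay between 0 and 4.11 CPM.

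The test of Ptx3 depended on which libraries shared the estimate of spread. In the fit over all 66 libraries its log2 fold change of 5.37 ± 1.77 (SE) at E1 had an adjusted p of 0.22, and that of 5.57 ± 1.78 at E4 an adjusted p of 0.20, so it was not called. In a fit of the 23 hindbrain GLASTneg libraries alone, with 20008 genes, it was called at E1 (5.34 ± 1.08, adjusted p = 0.0016) and at E4 (5.53 ± 1.08, adjusted p = 0.00089). Hindbrain GLASTpos controls held up to 10.2 CPM of Ptx3, and neither that population nor spinal cord reached a call at any stage. The difference between the hindbrain GLASTpos and GLASTneg responses at E4 was -7.24 ± 2.23 on the log2 scale, with an adjusted p of 0.31.

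Cd14 encodes the co-receptor that hands LPS to TLR4, and in the brain it is known above all from myeloid cells. It was at 0 in all 5 spinal cord controls. At E4 the 6 spinal cord libraries held 0.564, 30.6, 1.04, 4.67, 2.73 and 1.33 CPM, so that every library had a value above every control, as did 5.38% of all genes. Over 3 counts were held by 4 of the 6, and the rest lay within the floor that controls at 0 allow. Cd14 rose at least 5.91-fold against the floor, and the fitted log2 fold change was 7.33 ± 1.88 (adjusted p = 0.0022). Without the library of replicate 2 the mean fell to 2.07 ± 1.66 CPM (SD, n = 5), at least 1.79-fold the floor, and Cd14 was still called (5.65 ± 1.73, adjusted p = 0.012). At Ech Cd14 was called too (4.77 ± 1.70, adjusted p = 0.040) with a mean of 1.09 ± 1.04 CPM (SD, n = 6), which lies under the floor of 1.15 CPM in the controls, so no fold is given. That call was lost without any 1 of the 5 controls or without Ech replicate 1, 3 or 5 (4.48 ± 1.71, adjusted p = 0.063, without replicate 1). It was also lost with DESeq2 (adjusted p = 0.051) and with no filter on low counts (0.051). In the fit of the spinal cord alone it was lost too (4.84 ± 1.77, adjusted p = 0.056). The same held for libraries with an S number, described below for S100a10, over 56 alone (adjusted p = 0.13).

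Myeloid markers moved with Cd14 in the spinal cord. Their sum lay between 11.8 and 36.2 CPM in controls, 47.5 and 192 CPM at E1, 125 and 4860 CPM at E4 and 54.0 and 175 CPM at Ech. Of the 12 markers, Lyz2 alone was at 0 in all controls, and none was at 0 throughout any EAE stage. The part of myeloid RNA in the Cd14 result was not tested. The 3 genes of at least 5 CPM whose log2 levels over the 12 groups were most like those of Cd14 were Cybb (Pearson's r = 0.94), Arg1 (0.93) and Lyz2 (0.93), which are all known from myeloid cells. Tlr4 and Ly96, the receptor complex that CD14 serves, stayed at or below 6.74 and 3.60 CPM in the spinal cord controls, E4 and Ech libraries and were not called. The groups share library depth and the sort, and no p is given.

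In hindbrain GLASTneg libraries Cd14 was likewise at 0 in all 5 controls. The E4 libraries held 1.18, 1.20, 0.824, 2.85, 3.70 and 4.46 CPM, and the Ech libraries between 0.404 and 2.40 CPM. All 6 libraries of both stages thus had values above every control, where 1.82% of all genes at E4 and 0.818% at Ech separated in that direction. Over 3 counts were held by 3 of the 6 at E4 and 4 at Ech. The rest are not shown to exceed controls, since 0 counts allow up to the floor. The lower bound of the fold was 1.66 at E4 and 1.08 at Ech. Cd14 had adjusted p-values of 0.21 and 0.65 in the fit of all libraries, and of 0.029 at E4 in the fit of this population alone. The myeloid sum lay between 28.1 and 86.6 CPM in these controls, between 134 and 639 CPM at E4 and between 230 and 383 CPM at Ech.

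**Figure D2:**
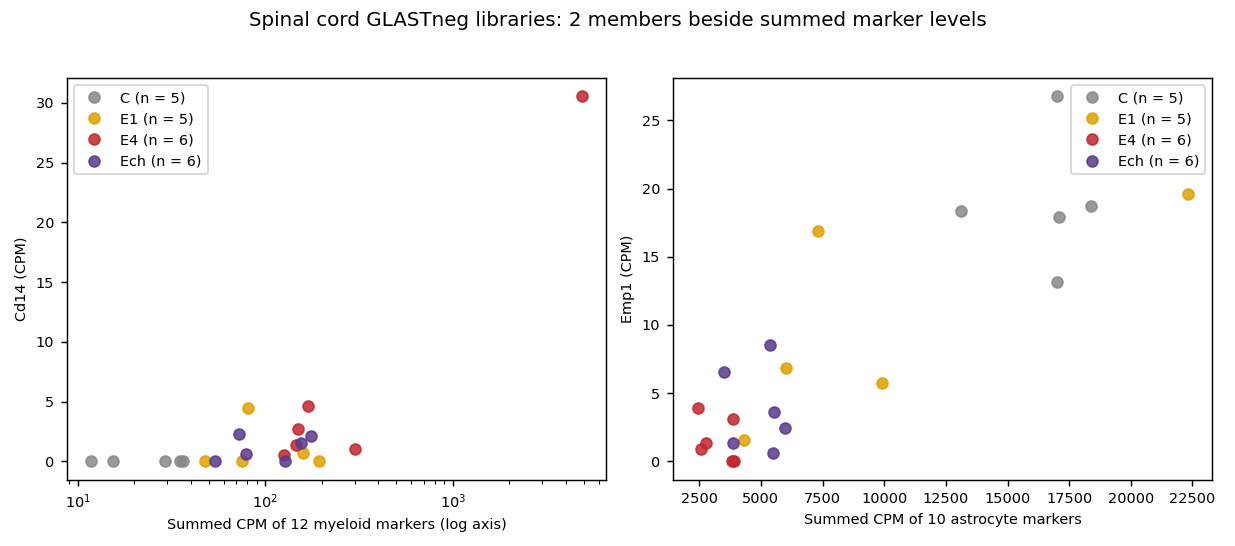
The left panel sets Cd14 (CPM) against the summed CPM of 12 myeloid markers (log axis) and the right panel Emp1 (CPM) against the summed CPM of 10 astrocyte markers, 1 point for each of the 22 spinal cord GLASTneg libraries, coloured by stage. The E4 library with 4860 CPM of myeloid markers has 30.6 CPM of Cd14, and all E4 and Ech libraries lie at or below 5980 CPM of astrocyte markers and 8.56 CPM of Emp1.

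The enzymes of lipid mediators were called in the spinal cord only, and their libraries were uneven. Ptgs2 encodes cyclooxygenase 2, the inducible enzyme of prostaglandin synthesis. It was at 0 in all 5 controls and all 5 E1 libraries of the spinal cord, and at E4 it was at 0, 8.99, 2.08, 0, 5.00 and 0 CPM. With 3 of 6 libraries above 0, Ptgs2 rose at least 2.32-fold against the floor (log2 fold change 6.01 ± 2.12, adjusted p = 0.032). Without replicate 2 at E4 the bound was 1.23 and the call was lost (5.14 ± 2.01, adjusted p = 0.061). It was also lost on leaving out any 1 of the 5 controls and with a term for the S number described below for S100a10 (8.2 ± 2.86, adjusted p = 0.055), and DESeq2 gave it no adjusted p. Replicate 2 held 2750 CPM of 15 immediate early genes, and the other E4 libraries 465 to 618 CPM. The same library held 4860 CPM of myeloid and 536 CPM of neutrophil markers. Ptgs2 is itself known as an immediate early gene, and the part of that state or of myeloid and neutrophil RNA in its level was not tested. In hindbrain Ptgs2 stayed at or below 5.24 CPM.

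Of 16 other genes of prostaglandin synthesis, transport and reception, 1 rose and 1 fell in the spinal cord at E4. Of all genes 6.8% were called higher there and 11.1% lower, and at Ech 5.16% and 9.57%. These shares stand beside every list count of the spinal cord at those stages. Ptgs1, the constitutive cyclooxygenase, fell from between 10.9 and 32 CPM in controls to between 0 and 13.0 CPM at E4 (log2 fold change -2.80 ± 0.71, adjusted p = 0.0017) and to between 0.274 and 3.97 CPM at Ech (-3.26 ± 0.71, adjusted p = 0.00033). Ptges3, a co-chaperone with prostaglandin E synthase activity, was the gene that rose. Ptges, the inducible synthase that works with cyclooxygenase 2, was at or below 3.28 CPM in controls and 1.56 CPM at E4 and was not called. The list had a median log2 fold change of 0.28, or 0.13 with genes absent from a group set at their bound, beside 0 over all genes.

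Sphk1 encodes sphingosine kinase 1, which makes the lipid mediator sphingosine 1-phosphate. It was at 0 in all 5 spinal cord controls and at 21.2, 2.75, 0, 4.09, 0.30 and 1.37 CPM at Ech. Sphk1 rose at least 4.29-fold against the floor at Ech (log2 fold change 6.88 ± 2.10, adjusted p = 0.014). Replicate 1 carried most of that level, and without it the mean was 1.70 ± 1.72 CPM (SD, n = 5), at least 1.48-fold the floor, with the call kept (5.34 ± 1.90, adjusted p = 0.044). At E1 and E4 the spinal cord libraries lay between 0 and 3.15 CPM and were not called. A transcript on the other strand, Gm29292, overlaps Sphk1, and whether counting used strand is not given in the sources used here.

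Among the receptors of that lipid S1pr1 and S1pr5 were called in the spinal cord at E4, and S1pr1, S1pr2 and S1pr4 at Ech. S1pr1, the main sphingosine 1-phosphate receptor of astrocytes, fell from between 465 and 850 CPM in spinal cord controls to between 3.38 and 43.9 CPM at E4 (-4.96 ± 0.41, adjusted p = 1.8e-16) and between 4.80 and 20.2 CPM at Ech (-5.67 ± 0.42, adjusted p = 3.1e-18). Of the 16 listed genes of this pathway beside Sphk1, S1pr5 and Cers6 also rose at E4 and S1pr1 was the only gene of the list that fell. S1pr3, a receptor known from reactive astrocytes, was at or below 3.28 CPM in controls and 1.36 CPM at E4 and was not called. At Ech S1pr2, Cers4 and Cers6 rose and S1pr1 and S1pr4 fell. These falls stood beside the lower astrocyte marker sum of the same libraries, whose part in them was not tested.

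B3gnt5 encodes the enzyme that starts lacto-series glycosphingolipids. In spinal cord it was at 0, 0, 0, 0 and 1.87 CPM in controls, at 2.49, 0, 1.58, 0 and 5.90 CPM at E1, at 1.13, 4.94, 2.60, 10.5, 0.228 and 1.33 CPM at E4 and at 6.82, 4.28, 4.65, 10.5, 10.2 and 0.548 CPM at Ech. At Ech 5 of 6 libraries lay above every control, and the log2 fold change of 3.99 ± 1.62 had an adjusted p of 0.074, or 0.031 in the fit of the 22 spinal cord libraries alone. In hindbrain GLASTpos libraries all 6 were at 0 at E4, beside controls at 0, 0, 1.96, 1.78 and 1.96 CPM. The spinal cord and hindbrain GLASTpos responses at E4 differed by 7.99 ± 2.20 on the log2 scale (interaction, adjusted p = 0.0088), a fitted value that rests on a group of zeros and is no measure of fold. In that interaction 3.79% of all genes were called higher in the spinal cord and 8.49% lower. Of 9 other genes of glycosphingolipid synthesis, B4galt1 rose and B4galt5 and B4galt4 fell in the spinal cord at E4, beside 6.8% and 11.1% of all genes.

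Cd109 encodes a membrane-anchored co-receptor that restrains transforming growth factor-β signalling. It was at 0 in 4 spinal cord controls and at 0.468 CPM in the other, and at Ech it was at 9.41, 0.917, 0, 0.909, 0 and 6.03 CPM. Cd109 was called at Ech (4.59 ± 1.57, adjusted p = 0.030), with a pooled ratio of 47.4 and a counting interval of 8.22 to 1900. The 2 libraries above 6 CPM carried it, and without replicate 1 the call was lost (3.72 ± 1.55, adjusted p = 0.089). It was also lost without Ech replicate 6 or any of control replicates 1 to 4, and in the fit of the spinal cord alone (4.62 ± 1.87, adjusted p = 0.079). In hindbrain GLASTneg libraries Cd109 was present without disease, with 3 of 5 controls at 1.84, 2.00 and 4.5 CPM and no stage called. Among genes of the transforming growth factor-β pathway, Smad7 rose and Tgfb2 and Smad3 fell in the spinal cord at E4, and none of these was called at Ech. Tgfbr1 and Tgfbr2, the receptor chains, were not called at either stage.

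S100a10, which pairs with annexin A2 and links it to the plasma membrane, was the only member at a level where each library could be read. In its order over the 12 groups the 4 hindbrain GLASTpos groups had the highest means, and the groups of the GLASTneg populations lay interleaved below them. In controls it was at 110, 94.4, 138, 79.97 and 105 CPM in hindbrain GLASTpos libraries, at 27.2, 35.0, 22.0, 11.1 and 16.9 CPM in hindbrain GLASTneg libraries and at 20.3, 2.95, 4.30, 17.6 and 20.6 CPM in spinal cord libraries. The lowest GLASTpos control lay above the highest GLASTneg control of either region, as 5.16% of genes did against hindbrain GLASTneg controls, and 5.17% were likewise lower in spinal cord than in hindbrain GLASTpos controls. S100a10 was higher in GLASTpos than in GLASTneg hindbrain controls (log2 fold change 2.23 ± 0.44, adjusted p = 1.0e-04) and lower in spinal cord than in hindbrain GLASTpos controls (-3.03 ± 0.46, adjusted p = 2.5e-07). The titles end in a number after the letter S, called the S number here, whose meaning is not given in the sources used here. It was at or below 56 in all hindbrain GLASTneg libraries and above 56 in all hindbrain GLASTpos libraries, so the GLAST sort and the S number cannot be told apart there.

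Calls of members in comparisons of controls are given beside the shares of all genes called. In hindbrain GLASTpos against GLASTneg controls S100a10 was the 1 member called, where 3.4% of all genes were called higher and 7.06% lower. In spinal cord against hindbrain GLASTpos controls S100a10 was lower and Emp1 higher (5.57 ± 1.19, adjusted p = 2.7e-04), beside 9.05% of genes called higher and 4.78% lower. In spinal cord against hindbrain GLASTneg controls no member was called, where 2.62% and 1.58% of genes were and where 2 members had an unadjusted p under 0.05, against 19.1% of genes. DESeq2 called 1 there, Emp1.

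S100a10 was not called in the hindbrain at any stage. The GLASTpos groups had means of 132 ± 64.9 CPM at E1 (SD, n = 6), 105 ± 27.8 at E4 (n = 6) and 94.6 ± 32.1 at Ech (n = 4), and the GLASTneg groups 33.5 ± 14.5, 34.2 ± 12.4 and 25.5 ± 3.85 CPM (n = 6 each). The libraries of every neighbouring pair in the order of the 12 groups overlapped, and neighbours were not tested as such. In the spinal cord S100a10 was called at Ech, at 63.5, 47.4, 5.71, 13.2, 32.4 and 28.2 CPM (1.30 ± 0.43, adjusted p = 0.023). There 4 of 6 libraries lay above every control, and without replicate 1 the call was lost (0.97 ± 0.43, adjusted p = 0.11). It was also lost without Ech replicate 2 or control replicate 2 or 3, and in the fit of the spinal cord alone (1.32 ± 0.57, adjusted p = 0.099).

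Partners of S100a10 were called at E4, when S100a10 was not. Of 9 tested genes, Anxa2, S100a11, S100a6, S100a4, Ahnak and Plaur rose in the spinal cord at E4, beside 6.8% of all genes called higher. The list median was 3.49, or 2.40 with bounds, beside 0 over all genes. Anxa2 lay between 1.88 and 11.9 CPM in spinal cord controls and between 51.6 and 492 CPM at E4 (4.66 ± 0.65, adjusted p = 2.4e-08), while S100a10 lay between 5.64 and 19.8 CPM at E4 (0.10 ± 0.43, adjusted p = 0.99). In hindbrain GLASTpos libraries Anxa2 rose at E1 (3.43 ± 0.65, adjusted p = 5.0e-04) and at E4 (3.72 ± 0.66, adjusted p = 9.5e-05). S100a6, S100a4 and Plaur are also known from myeloid cells, whose marker sum was higher in the same libraries, and its part was not tested.

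Of the tetraspan genes, Emp1, an epithelial membrane protein, was called lower in the spinal cord and Tm4sf1 was not called at any stage of EAE. In spinal cord controls Emp1 was at 26.8, 13.1, 18.4, 17.9 and 18.7 CPM, above all 5 hindbrain GLASTneg controls (0.346 to 4.66 CPM) and all 5 hindbrain GLASTpos controls (0 to 2.04 CPM), as were 3.37% and 6.56% of all genes. At E1 the spinal cord libraries held 5.73, 19.6, 1.58, 6.85 and 16.9 CPM, at E4 0, 0.899, 3.89, 0, 1.37 and 3.11 CPM, and at Ech 6.58, 8.56, 0.634, 1.36, 3.60 and 2.47 CPM. All libraries of E4 and of Ech lay below every control, which 7.01% and 6.66% of all genes also did. Emp1 fell at E4 (-3.54 ± 0.97, adjusted p = 0.0043) and had an adjusted p of 0.070 at Ech (-2.28 ± 0.92), or 0.028 in the fit of the spinal cord alone.

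The response of Emp1 at E4 differed between populations. The spinal cord response was lower than that of hindbrain GLASTneg libraries (difference of log2 fold changes -4.49 ± 1.36, interaction adjusted p = 0.025), beside 1.92% of genes called higher and 6.0% lower in that interaction. That call was lost without control replicate 4 of the hindbrain GLASTneg libraries (-4.19 ± 1.41, adjusted p = 0.055). It was also lost with a term for the S number (adjusted p = 0.29). The spinal cord response was lower than that of hindbrain GLASTpos libraries too (-6.11 ± 1.47, adjusted p = 0.0020). Within hindbrain GLASTpos libraries Emp1 was at 0 in all 4 Ech libraries and between 0 and 4.90 CPM at E4, and the step from E4 to Ech was called lower (at least 2.45-fold, adjusted p = 0.015), the only member among 0.913% of genes called lower and 2.7% called higher. The call was lost without Ech replicate 2 (adjusted p = 0.057) and in the fit of this population alone (-6.0 ± 2.25, adjusted p = 0.18).

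Marker sums and the S number moved with Emp1 in the spinal cord, and the part of either was not tested beyond the fit given here. The astrocyte sum and the sum of 9 mural and fibroblast markers, 85.7 to 187 CPM in controls and 7.99 to 21.8 CPM at E4, were both lower. At E1 the library with the most Emp1, replicate 2, also had the highest astrocyte sum (22300 CPM) and mural sum (175 CPM) of its group. The S number was over 56 in all 5 spinal cord controls and in 1 of 6 E4 libraries. With that number as a term the fall of Emp1 was -2.45 with an adjusted p of 0.21, so stage and S number cannot be told apart for it. Cd14 at E4 was still called with that term (7.86 ± 2.41, adjusted p = 0.023) and not in the libraries over 56 alone, which hold 1 E4 library (4.81 ± 2.44, adjusted p = 0.36). Emp3, of the same family, rose (4.85 ± 1.09, adjusted p = 4.1e-04) and Emp2 fell at E4.

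Tm4sf1, a tetraspan protein known from endothelium and tumour cells, never passed 3.84 CPM in the EAE experiment. Its highest spinal cord values were 2.40 CPM at E1 and 2.12 and 3.84 CPM at Ech. Endothelial markers summed to between 0 and 20.8 CPM in hindbrain libraries and between 1.5 and 41.3 CPM in spinal cord libraries, with Cdh5 at 0 in all 5 spinal cord controls.

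Tgm1 encodes transglutaminase 1, which cross-links proteins. In hindbrain GLASTneg libraries it was at 0 in all 5 controls, at 2.63, 2.44, 0, 7.94, 6.14 and 4.24 CPM at E1 and at 2.94, 0, 3.30, 1.43, 3.70 and 1.34 CPM at E4. Hence 5 of 6 libraries at each stage had values above every control, and the lower bound of the fold was 2.73 at E1 and 1.48 at E4. At each stage 4 of the 6 held over 3 counts. The adjusted p was 0.19 at E1 and 0.40 at E4 over all libraries, and 0.0086 and 0.033 in the fit of this population alone. In hindbrain GLASTpos libraries at E1 Tgm1 was at 16.3 and 11.9 CPM in replicates 4 and 5 and at 0 in the other 4. The antisense transcript Gm49067 overlaps Tgm1. Tgm2, the tissue transglutaminase, was at 0 in spinal cord controls and between 3.11 and 138 CPM at E4 (9.37 ± 1.66, adjusted p = 7.6e-06).

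Calls over the 10 members are given here for each population and stage, beside the share of all genes called in the same comparison. In hindbrain GLASTneg libraries edgeR called 0 members at E1, E4 and Ech, where 0.635%, 0.707% and 0.189% of all genes were called higher and 0.00857%, 0.0214% and 0.00429% lower. At an unadjusted p under 0.05 there were 5, 4 and 3 members, against 9.57%, 8.83% and 7.64% of genes. In the fit of this population alone 3 members, Ptx3, Tgm1 and Cd14, were called at E1 and at E4, beside 1.92% and 1.77% of genes called higher. DESeq2's Wald test called 0 members at all 3 stages.

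In hindbrain GLASTpos libraries edgeR likewise called 0 members at E1, E4 and Ech, beside 1.27%, 1.66% and 1.21% of genes called higher and 0.214%, 0.369% and 0.0986% lower. At an unadjusted p under 0.05 there were 5, 4 and 3 members, in both directions, against 17.9%, 18.8% and 19.1% of genes. DESeq2 called 1 member at E1, Emp1, and 0 at E4 and Ech.

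In the spinal cord edgeR called 0 members at E1, 3 at E4 (Ptgs2 and Cd14 higher, Emp1 lower) and 4 at Ech (S100a10, Sphk1, Cd109 and Cd14, all higher). The share of all genes called higher was 2.5%, 6.8% and 5.16%, and lower 3.68%, 11.1% and 9.57%. At an unadjusted p under 0.05 there were 4, 6 and 7 members against 26.2%, 36.2% and 32.9% of genes. The median log2 fold change of the members was 2.12, 2.17 and 2.87, or 1.10, 0.64 and 1.41 with genes absent from a group at their bound, beside 0 over all genes. At E1 no member was called by DESeq2 either. The 3 stages share their 5 controls. Without Ech replicate 1, or without control replicate 2 or 3, Sphk1 was the 1 member still called at Ech. Ech replicate 1 held the highest level of its group for Sphk1, Cd109 and S100a10.

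**Figure D3:**
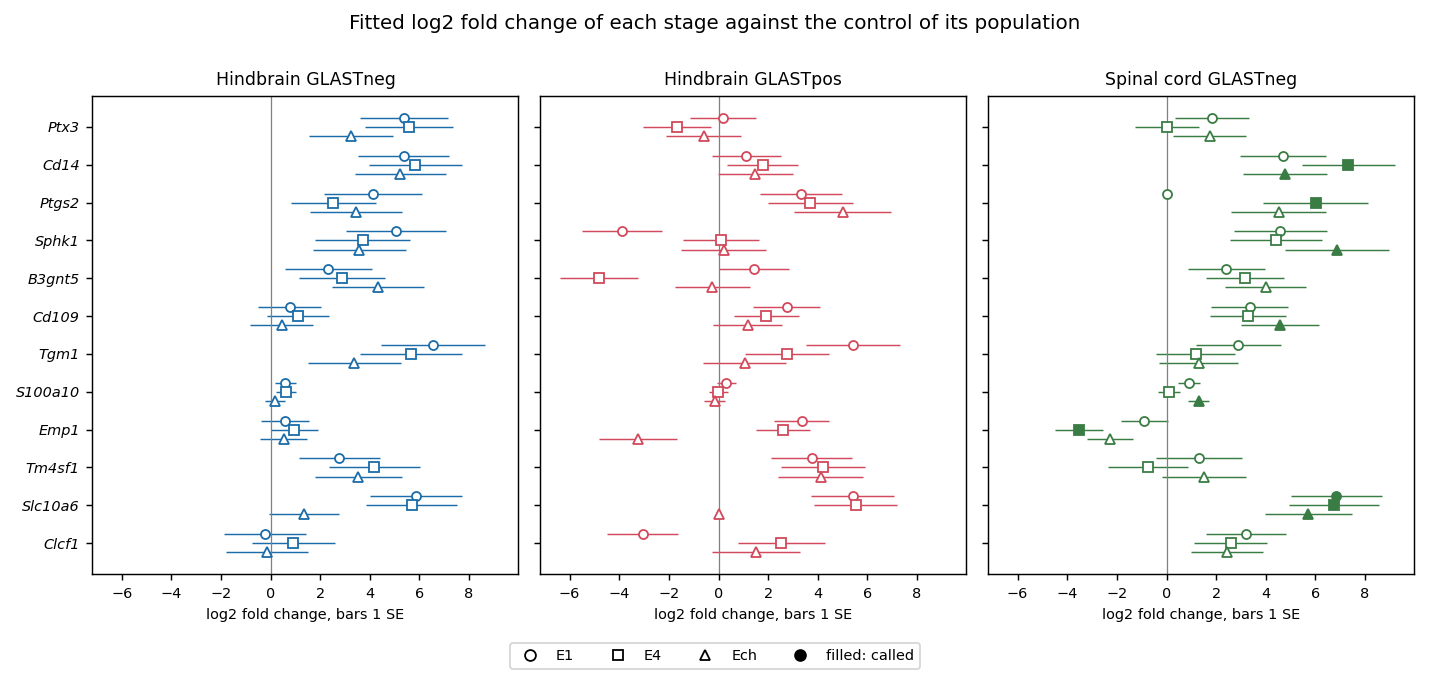
Fitted log2 fold change (horizontal axis, bars 1 SE) of the 10 members and of Slc10a6 and Clcf1 at E1 (circle), E4 (square) and Ech (triangle) against the controls of each population, with filled symbols for called genes. Filled symbols appear in the spinal cord panel only, and the wide bars belong to genes at or near 0 in controls, whose fitted size is no measure of fold.

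The remaining pair of the MCAO list differed from each other. Slc10a6, a transporter of sulphated steroids, was at 0 in all spinal cord controls and at 2.24, 11.4, 3.56, 3.43 and 3.66 CPM at E1. It was called there (6.85 ± 1.83, adjusted p = 0.011), at E4 (6.76 ± 1.81, adjusted p = 0.0038) and at Ech (5.72 ± 1.74, adjusted p = 0.014), with lower bounds of the fold of 4.21, 3.96 and 1.91. All E1 libraries lay above every control, as 1.97% of all genes did. Slc10a6 was the 1 gene of the 12 that was called at every spinal cord stage in the fit of all libraries. Its E4 call was lost with a term for the S number (6.3 ± 2.3, adjusted p = 0.068), and in the libraries over 56 alone it was called at no stage (adjusted p = 0.072, 0.65 and 0.061). Without Ech replicate 1 the Ech call was lost (4.30 ± 1.65, adjusted p = 0.065), and the mean of 0.847 CPM lay under the floor of 1.15 CPM in the controls, so no bound remained. Clcf1, a cytokine of the interleukin 6 family, was at or below 4.90 CPM in all libraries and was not called at any stage.

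The other reactive sets are given for the same libraries. Of 13 pan-reactive genes, 6, 7 and 6 rose in the spinal cord at E1, E4 and Ech, 6, 5 and 3 in hindbrain GLASTneg libraries and 6, 3 and 2 in hindbrain GLASTpos libraries, and Aspg fell in the spinal cord at Ech. Serpina3n, a protease inhibitor, went from between 12.6 and 32.2 CPM to between 1680 and 2160 CPM in the spinal cord at E4 (6.45 ± 0.58, adjusted p = 5.9e-15). Of 11 tested LPS-reactive genes, 8, 9 and 8 rose in the spinal cord, 6, 7 and 4 in hindbrain GLASTneg libraries and 7, 9 and 2 in hindbrain GLASTpos libraries, and Fbln5 and Amigo2 fell in the spinal cord at E4. These counts stand beside the shares of all genes called at each stage given above. Iigp1, an interferon-induced GTPase, went from between 0 and 2.66 CPM to between 396 and 843 CPM in hindbrain GLASTneg libraries at E4 (8.82 ± 0.91, adjusted p = 1.3e-10). No test compared the sets with each other.

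Among 18 genes of the cytokine and transcription pathways that act upstream of such genes, Il1b, Tnf, Il1r1, Osmr, Stat3, Socs3, Rela, Cebpb and Cebpd rose and Cntfr and Nfkb1 fell in the spinal cord at E4. Of all genes 6.8% were called higher there and 11.1% lower. In hindbrain GLASTneg libraries Osmr, Stat3, Socs3 and Cebpd rose at E1 and at E4, beside 0.635% and 0.707% of all genes called higher. Osmr, a receptor subunit for oncostatin M, was the gene whose log2 levels over the 12 groups were most like those of both Tgm1 and Ptx3 (Pearson's r = 0.86 each). The groups share their depth and their controls, so these values only describe the order of the groups. The genes most like the remaining members were Slc7a8 for S100a10 (0.98), Gpnmb for Cd109 (0.88), Osgin2 for Emp1 (0.89) and Set for B3gnt5 (0.94).

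In the FVB/N libraries the group names need care. Hoxc8, a gene of the spinal cord axis, lay between 117 and 175 CPM in the libraries labelled hindbrain GLASTneg and was at 0 in all 3 labelled spinal cord. The libraries labelled spinal cord GLASTneg had the most Slc1a3, between 9420 and 11000 CPM. Values that the study lists for its most expressed genes match the columns under other names for 12 of 15 libraries. There the libraries labelled spinal cord are named hindbrain GLASTpos, and those labelled hindbrain GLASTneg are named spinal cord. Those labelled forebrain GLASTpos are named hindbrain GLASTneg, and those labelled hindbrain GLASTpos are named forebrain GLASTpos. The levels of Hoxc8 and Slc1a3 go with these listed names and not with the labels.

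Of the 10 members, 6 reached a total of 10 counts over the 15 FVB/N libraries and were tested among 14957 genes. S100a10 lay between 66.2 and 155 CPM in the libraries labelled spinal cord, between 14.7 and 49.2 CPM in those labelled forebrain GLASTpos and at or below 23.3 CPM in all other libraries, and 2.18% of genes separated the libraries labelled spinal cord in that direction. In the libraries labelled spinal cord against the mean of the rest it was the 1 member called (3.05 ± 0.41, adjusted p = 4.5e-09), beside 4.01% of genes called higher and 3.53% lower. With the listed names the spinal cord difference was -0.37 ± 0.54 (adjusted p = 0.85), with 0 members called beside 2.83% and 1.58% of genes.

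Tm4sf1 lay between 15.8 and 98.3 CPM in the libraries labelled forebrain GLASTpos. With the names as labelled no member was called between GLASTneg and GLASTpos libraries of the forebrain (0.535% of genes higher and 0.675% lower) or of the hindbrain (2.03% and 1.95%). Unadjusted p-values under 0.05 were had by 2 and 1 of the 6 members, against 7.74% and 13.4% of genes, and DESeq2 called none in either. With the listed names Tm4sf1 was called higher in hindbrain GLASTneg than in GLASTpos libraries (3.28 ± 0.90, adjusted p = 0.016), beside 2.52% of genes called higher and 1.24% lower, and no member was called in the forebrain (0.147% and 0.0334%). Directions between FVB/N regions thus follow the names used, and Hoxc8 and Slc1a3 go with the listed names. Only the comparison with cultures does not need group names.

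In cultured neonatal astrocytes 7 of the 8 tested members were called higher than in isolated astrocytes, taken as the mean of the 5 FVB/N groups, or 6 without Cd14, whose call did not hold. Among 17126 genes 23.3% were called higher and 8.38% lower. The members had a median log2 fold change of 4.25, beside 0.43 over all genes. Cd109 held 92.7, 184 and 167 CPM in the cultures and a mean of 4.28 CPM in isolated cells (5.72 ± 0.47, adjusted p = 1.9e-13). Emp1 lay between 82.3 and 111 CPM against a mean of 5.2 CPM (4.65 ± 0.48, adjusted p = 1.3e-10), and Tm4sf1 between 158 and 195 CPM against 19.1 CPM (3.85 ± 0.40, adjusted p = 1.1e-10). For Cd109, Emp1, Tm4sf1, Ptx3 and B3gnt5 all 3 cultures lay above every isolated library, as they did for 13.6% of all genes.

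S100a10 lay between 135 and 275 CPM in the cultures, and 2 of 3 lay above the highest isolated library (3.42 ± 0.30, adjusted p = 1.5e-12). Ptx3 lay between 6.37 and 16.1 CPM against 0.391 CPM (5.25 ± 1.08, adjusted p = 1.5e-04). B3gnt5 lay between 2.78 and 5.41 CPM, with a ratio of 31.0 (counting interval 8.24 to 261). Cd14 was closest to the threshold (2.65 ± 1.07, adjusted p = 0.047) and was called in 0 of 4 other settings and in 5 of 18 fits that left out 1 library, and Sphk1 was not called (1.46 ± 1.10, adjusted p = 0.32). Tgm1 and Ptgs2, with at most 0.796 and 0.457 CPM in the cultures, had too few counts to be tested.

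Against the 23.3% of all genes called higher in culture, 8 of 10 S100a10 partners, 10 of 13 pan-reactive genes and 5 of 11 genes of the CD14 receptor complex were, including Tlr2 and Lbp, and the pan-reactive genes Serpina3n and Aspg were lower. The sphingosine 1-phosphate list, with 4 of 13 genes higher and 2 lower, had a median log2 fold change of -0.27, and the family of Emp1, with 1 of 3 higher, a median of -0.1. Of 14 prostaglandin genes 3 were higher and 2 lower, and of 13 genes of the transforming growth factor-β pathway 4 were higher. The cultures held 435 to 3440 CPM of myeloid markers, 1080 to 3810 CPM of mural and fibroblast markers, 221 to 263 CPM of endothelial markers and 5550 to 6130 CPM of astrocyte markers, and the part of those cell types was not tested. Strain, age, medium, RNA extraction and culture itself differ together between the cultures and the isolated cells and cannot be told apart.

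**Figure D4:**
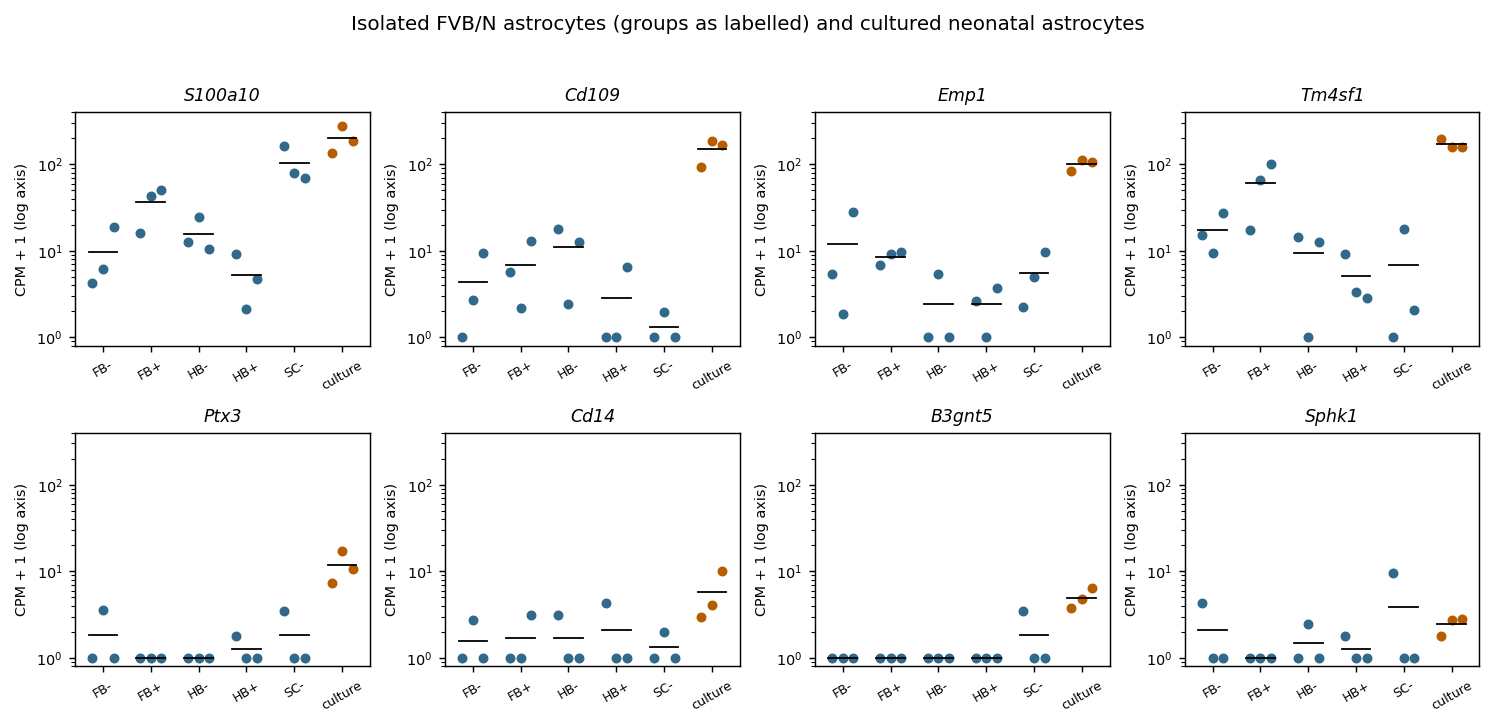
CPM + 1 (log axis) of the 8 tested members in the 15 isolated FVB/N libraries, with groups named as labelled (FB forebrain, HB hindbrain, SC spinal cord, + GLASTpos, - GLASTneg), and in 3 cultures, 1 point a library and a bar at the group mean. The 3 cultures lie above every isolated library for Cd109, Emp1, Tm4sf1, Ptx3 and B3gnt5, of which Ptx3 and B3gnt5 passed the filter only through the cultures. Among isolated libraries S100a10 is highest in those labelled SC, which the study lists as hindbrain GLASTpos.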

How the data were processed

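RNA of sorted mouse astrocytes was sequenced as 3′ tags (Lexogen QuantSeq, 50 base reads). Per the labels and the submitters' processing notes, the authors aligned reads to GRCm38 with HISAT 0.1.5 and counted them per gene with HTSeq 0.6.1p1, and deposited raw counts. The strand setting of counting is not given in the sources used here. Libraries hold cells of up to 2 mice.

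From the deposited counts, genes that reached 10 counts in sum were fitted with edgeR 4.0.16 in R 4.3.3 (TMM scaling, quasi-likelihood test, one fit for all 66 EAE libraries, one for 15 FVB/N libraries, one with 3 cultures added). A gene was called at a Benjamini-Hochberg adjusted p under 0.05 and an absolute log2 fold change over 1. The SE is the log2 fold change divided by the square root of F. The fit was tested on simulated data. No library pair held identical counts. The alternatives were DESeq2 1.42.0, other scaling and filters, single-population fits, a number after S in the titles (up to or over 56), the replicate number, other group names for FVB/N libraries and leaving out each library.

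The 10 members and the pathway and marker lists were chosen with earlier results of these data known. Beside the members, the text names the 2 other MCAO genes, the called gene of largest fold change in each pathway list in spinal cord at E4, listed genes whose products bind or feed a member, and the 3 genes most like a member over the 12 groups. Ptgs1 at Ech, Serpina3n, Iigp1, Slc1a3, Atp1b2, Hoxc8, Emp2, Ptges3 and the other called members of lists were named after their values were seen. Bounds of a fold take a group at 0 at the floor of 3 counts a library, averaged over the group. The values of 1 gene of a pathway list are not reported here.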

Additional observations from a re-analysis of the deposited data

Results flagged for a closer look

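In 93 pairs of a member and an EAE group of 4 to 10 libraries, 25 had 1 library apart from the rest by Dixon's criterion, always the highest library, and 7 of the 25 lay in the spinal cord. Chance flags about 1 in 20 such groups, and a group in which most libraries are at 0 is flagged easily. The largest values were Cd14 at 30.55 CPM in spinal cord E4 replicate 2 and Sphk1 at 21.16 CPM in spinal cord Ech replicate 1. Cd14 also stood apart at 4.499 CPM in spinal cord E1 replicate 5 and at 2.044 CPM in hindbrain GLASTpos C replicate 1, the library in which Emp1 stood apart, also at 2.044 CPM.

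Among the recognition and cross-linking genes, Ptx3 stood apart at 10.23 CPM in hindbrain GLASTpos C replicate 2, at 6.892 CPM in Ech replicate 1 of that population, at 2.624 CPM in spinal cord C replicate 2 and at 2.595 CPM in spinal cord E4 replicate 3. Tgm1 did so at 4.206 CPM in hindbrain GLASTpos E4 replicate 4 and at 3.057 CPM in spinal cord Ech replicate 1.

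Hindbrain GLASTpos Ech replicate 2 held the flagged value of 4 members, Sphk1 and Tm4sf1 at 2.759 CPM each, Ptgs2 at 5.241 CPM and B3gnt5 at 3.862 CPM. Sphk1 was also apart at 2.423 CPM in hindbrain GLASTneg Ech replicate 3, at 3.032 CPM in hindbrain GLASTpos C replicate 2 and at 2.804 CPM in hindbrain GLASTpos E4 replicate 4. Ptgs2 was apart at 1.647 CPM in hindbrain GLASTneg Ech replicate 6, and at 2.295 and 2.985 CPM in hindbrain GLASTpos E1 and E4 replicate 2. Tm4sf1 was apart at 2.019 CPM in hindbrain GLASTneg Ech replicate 3 and at 3.21 CPM in hindbrain GLASTpos E1 replicate 5. B3gnt5 was apart at 1.427 CPM in hindbrain GLASTneg E4 replicate 4 and at 1.872 CPM in spinal cord C replicate 5.

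By the interaction test of edgeR, which took libraries of different populations as independent although numbers in their titles recur, 3 responses at E4 differed between populations. Emp1 responded lower in the spinal cord than in hindbrain GLASTneg libraries (-4.49 on the log2 scale) and hindbrain GLASTpos libraries (-6.11), and B3gnt5 responded higher in the spinal cord than in hindbrain GLASTpos libraries (7.99). With a term for the S number the Emp1 difference from hindbrain GLASTneg libraries was not called.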

How the results depend on the processing

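Of the counts of called members, 266 values under an alternative stayed within 1.5 times the reported count and 25 did not. The 266 include counts of 0 that stayed at 0, steps from 3 to 2, and counts kept with other genes called. Fits that lost Ptgs2 in the spinal cord at E4 are among them, so these totals do not measure how well single calls held. In hindbrain GLASTneg libraries the fit of that population alone called 3 members at E1 and 3 at E4 in place of 0. In hindbrain GLASTpos libraries DESeq2 called 1 at E1, and leaving out single libraries gave 0 to 1 at E1 and at E4, Emp1 being called without C replicate 1. In the spinal cord at E4 a term for the S number of the titles left 1 call and libraries over 56 alone 0, and single libraries left out gave 2 to 3. At Ech libraries over 56 alone gave 2 calls and single libraries left out 1 to 4. In controls, hindbrain GLASTpos against GLASTneg gave 2 calls with DESeq2 and 2 with the S number term, and 1 to 2 without single libraries. Spinal cord against hindbrain GLASTneg gave 1 with DESeq2. Over the 6 comparisons of successive stages DESeq2 gave 3 calls and no count filter 2, in place of 1. In FVB/N libraries the listed names gave 1 call in the hindbrain and 0 for the spinal cord, and single libraries left out gave 0 to 1 in the forebrain and 1 to 2 for the spinal cord. In cultures edgeR's expression filter left 4 calls, since it removed B3gnt5, Cd14 and Ptx3 before the test, and single libraries left out gave 6 to 7. S100a10 at E4 in the spinal cord, not called, turned from 0.10 to -1.22 in libraries over 56 alone and ranged from -0.16 to 0.33 with single libraries left out, being negative without C replicate 2 (-0.16), C replicate 3 (-0.13) or E4 replicate 2 (-0.02), and its FVB/N spinal cord difference turned to -0.37 with the listed names. Apart from the genes removed by the expression filter, the cause of these changes was not tested, except that fewer libraries entered where some were left out. Libraries of the same replicate number did not deviate together (mean correlation -0.0104, -0.00286 and -0.0074 in the 3 populations, against 0.00218, 0.000832 and 0.00153 for other pairs). The replicate number is the running number of a title, and no source ties it to a mouse, litter or day. Numbers inside titles recur between populations under different replicate numbers. Neither this check nor a block on that number can therefore show whether libraries share mice or a day. The replicate block left 0 calls at each hindbrain stage, 3 at E4 and 3 at Ech in the spinal cord and 6 in cultures, losing Cd109 at Ech and Cd14 in cultures. Depth limits the values near the floor, which most members are.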
